A study of Arabidopsis thaliana with 8 samples.

Results

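The Arabidopsis genes described here encode the histones other than H2A.Z: H2A, H2B, H3, H4 and the linker histone H1. They were chosen by locus identifier and not by their measured values, though earlier results of these data were known at the time. All 42 were present in a table of 36796 genes. By class there were 9 H2A, 11 H2B, 11 H3, 8 H4 and 3 H1 genes. By type, 17 were replication-coupled (canonical H2A, H3.1 and H4), 9 were replacement genes (H2A.X, H2A.W, H3.3 and the centromeric CENH3) and 16 (H2B, H1 and the H3 genes HTR6 and HTR11) were given no type. Transcripts were measured by poly(A) RNA sequencing in 4 libraries of the double mutant hta9 hta11 and 4 of wild type, all in the Col-0 background. Each library came from a pool of 5 plants, harvested as whole rosettes at 17 days before bolting. The plants grew in 16 h of light and 8 h of dark at 22 °C and were taken 6 h after lights on. The labels name the mutated H2A.Z genes but not the kind or position of the mutations, and no treatment was applied to either genotype. The design text names perturbed chromatin in hta9 hta11 plants as the reason for measuring transcripts; the values given here are those of the genes that supply the remaining histones.

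Nucleosomes wrap DNA around a core of H2A, H2B, H3 and H4, and H1 binds the DNA that enters and leaves them. Replication-coupled histones are made mainly in S phase and packaged onto new DNA. Replacement variants are put in at other times: H3.3 in transcribed genes, H2A.W in heterochromatin and CENH3 at centromeres. H2A.X, also typed as replacement here, serves to signal DNA breaks. H2A.Z, the variant encoded by HTA9 and HTA11, takes the place of H2A near transcription start sites. Unlike most animal S-phase histone messages, those of plants carry poly(A) tails, so poly(A) selection retains them.

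Short DNA elements are known from plant histone promoters, among them the octamer CGCGGATC and the hexamer ACGTCA. Both were searched on both strands of the 300 bases that run from 250 before to 50 after each gene start. The octamer was in 40 of 27443 nuclear protein-coding promoters (0.146%) and in 10 of the 42 histone promoters. Of these 10, 7 belonged to the 17 replication-coupled genes, 2 to the 9 replacement genes and 1 to the 16 genes without a type; no H2A.Z promoter held it. The hexamer was in 2522 promoters (9.19%) and in 13 histone promoters, 9 of them among the 11 H2B genes, where it always lay on the strand of the gene. No H2B promoter held the octamer, and no H2A promoter held the hexamer. The windows below are examples from genes of different classes. They were taken because they hold the octamer, and the bases around it were not compared. They lie upstream of the gene start and read 5′ to 3′ on the strand of the gene. The octamer is in capitals (GATCCGCG where it runs on the opposite strand). They come from the RefSeq sequence of TAIR10.1, as do all sequences here.
HTA13, canonical H2A, chr3:7229306-7229345, plus strand: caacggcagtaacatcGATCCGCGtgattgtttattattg
HTA6, H2A.W, chr5:24116313-24116352, minus strand: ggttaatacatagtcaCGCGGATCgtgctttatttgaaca
HTR1, H3.1, chr5:26120684-26120723, minus strand: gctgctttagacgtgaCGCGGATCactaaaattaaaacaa
HTR9, H3.1, chr5:3271054-3271093, minus strand: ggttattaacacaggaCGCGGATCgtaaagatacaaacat
AT5G59690, H4, chr5:24051387-24051426, plus strand: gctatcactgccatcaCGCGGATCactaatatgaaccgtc
H1.1, linker H1, chr1:2077772-2077811, minus strand: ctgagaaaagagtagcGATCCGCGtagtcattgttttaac

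Windows around the hexamer, in capitals, are shown for 4 of the 11 H2B genes.
HTB5, chr2:15736663-15736700, plus strand: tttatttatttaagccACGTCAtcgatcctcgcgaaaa
HTB6, chr3:19889185-19889222, plus strand: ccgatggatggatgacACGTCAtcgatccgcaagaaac
HTB9, chr3:16898148-16898185, minus strand: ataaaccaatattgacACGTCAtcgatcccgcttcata
HTB11, chr3:16914198-16914235, minus strand: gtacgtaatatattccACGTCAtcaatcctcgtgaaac

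In HTB5, HTB6 and HTB9 the hexamer is followed after 1 base by CGATC. In HTB11, HTB1, HTB2 and HTB3 it is not, and HTB7 and HTB8 held no hexamer. That longer arrangement, picked out after the windows had been read, was in 11 of all promoters (0.0401%), of which 6 were histone genes (4 H2B, 1 H3 and 1 H4). The E2F-like words TTTCCCGC and TTTGGCGC were in 0.798% and 0.434% of all promoters; among the histone promoters TTTCCCGC was in 0 and TTTGGCGC in 2, those of the H4 genes AT3G46320 and AT3G45930. None of the 4 words was in the promoter window of HTA12 or HTR6, the genes whose levels changed. Other histone genes also held none of them, among them HTA1, HTA7, HTR4 and H1.2. A link between these words and a change in level was not tested. A match is a run of letters and not a measured binding site.

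Beside those promoters, the coding sequences set apart the H3 types. The 5 H3.1 genes encode the same 136-residue protein, which differs at 4 of 136 aligned residues from that of each H3.3 gene; the HTR4 protein in the annotation is longer, with 164 residues. Over the 136 aligned residues HTR6 differs from H3.1 at 9 and from H3.3 at 7. The stretches below run from codon 27 to codon 47, counted from the start codon, with the codons at 32 and 42, where H3.1 and H3.3 encode different residues, in capitals.
HTR1, H3.1, chr5:26120369-26120431, minus strand: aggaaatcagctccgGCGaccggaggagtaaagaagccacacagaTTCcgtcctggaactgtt
HTR5, H3.3, chr4:18558009-18558071, minus strand: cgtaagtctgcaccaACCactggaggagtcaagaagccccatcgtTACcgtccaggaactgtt
HTR6, chr1:4588382-4588444, minus strand: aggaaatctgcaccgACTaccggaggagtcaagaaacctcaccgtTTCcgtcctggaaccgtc

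At codons 32, 88 and 91 the residue encoded by HTR6 is that of the H3.3 gene HTR5, and at codon 42 it is that of the H3.1 gene HTR1. HTR6 was therefore kept apart from both types. The 8 H4 genes encode the same 103-residue protein.

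Library totals ran from 31611735 to 47467130 counts in hta9 hta11 and from 32027511 to 40635454 in wild type. The 42 histone genes took 0.297% to 0.352% of the counts in hta9 hta11 and 0.292% to 0.360% in wild type. HTA9 (AT1G52740) had 60.6, 14.8, 33.4 and 16.5 CPM (counts scaled to a common library size, with TMM factors) in hta9 hta11 libraries 1 to 4, against 103.9, 91.5, 99.8 and 86.0 CPM in wild type. HTA11 (AT3G54560) had 26.03, 2.98, 14.1 and 3.604 CPM in hta9 hta11, against 54.1, 38.5, 45.4 and 41.6 CPM in wild type. Every mutant library lay below every wild-type library for both genes, but hta9 hta11 libraries 1 and 3 held more of each than libraries 2 and 4. HTA9 fell (log2 fold change -1.60, adjusted p = 0.0457), and HTA11 did not pass (log2 fold change -1.94, adjusted p = 0.0924, edgeR's quasi-likelihood test). HTA8, a further H2A.Z gene, had 13.6 to 20.4 CPM in hta9 hta11 and 14.5 to 18.3 CPM in wild type (adjusted p = 0.665), and HTA4 had no count. The 5 mesophyll genes, such as RBCS1A and LHCB1.3, summed to between 42120 and 49190 CPM in hta9 hta11 and between 45880 and 55350 CPM in wild type, and 0 passed (0 in DESeq2 and limma-voom; 1 at an unadjusted p under 0.05). Of 8 floral genes, 6 rose, beside 2.49% of all genes tested, and 1 had a log2 fold change below 0. The whole list summed to 13.3, 22.5, 11.5 and 19.5 CPM in hta9 hta11 libraries 1 to 4, against 3.99 to 4.68 CPM in wild type. The 4 genes of growing leaves summed to 61.8 to 81.5 CPM in hta9 hta11 and 56.1 to 62.6 CPM in wild type, and the 6 shoot meristem genes to 62.9 to 84.9 CPM and 57.95 to 72.2 CPM; with edgeR and limma-voom 0 of 4 and 0 of 4 tested genes in these lists were called, while DESeq2 called 1 in each, GRF5 and KNAT1. At an unadjusted p under 0.05 edgeR gave 3 and 3, beside 18% of all genes tested. The log2 fold change was above 0 in 4 of 4 and 4 of 4 tested genes (medians 0.315 and 0.357). The 4 stomatal lineage genes summed to 43.7 to 56.2 CPM in hta9 hta11 and 44.7 to 48.2 CPM in wild type, with 0 of 4 passing in any of these tools and 0 at an unadjusted p under 0.05. Pollen, seed and root lists each stayed below 1 CPM in every library of both genotypes, with 1 defining gene of each at 0 throughout. The part of these tissue differences in the histone values was not tested.

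Transcript levels of the histone genes differed little between hta9 hta11 and wild-type rosettes. Of the 42 genes, 41 had enough counts to be tested, and 2 changed. HTR6 rose and HTA12, an H2A.W gene, fell. That is 4.88% of those tested, beside 3.74% of all 20214 genes tested (757 genes; 2.49% rose and 1.25% fell), so the share of histone genes that changed was close to the share of all genes. The groups of libraries did not overlap in the same 2 genes of 41, against 11.3% of all genes tested (6.23% higher and 5.07% lower in hta9 hta11). The 39 other genes had log2 fold changes between -0.28 and 0.42, and their 95% intervals lay between -0.72 and 0.75. The interval lay within a 2-fold change in either direction for 40 of the 41 genes. The median log2 fold change over the 41 was -0.04, and over all genes tested it was -0.00137; 27 histone genes lay below 0 and 14 above. In bulk tissue, fewer cells of a type and less RNA per cell cannot be told apart.

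**Figure D1:**
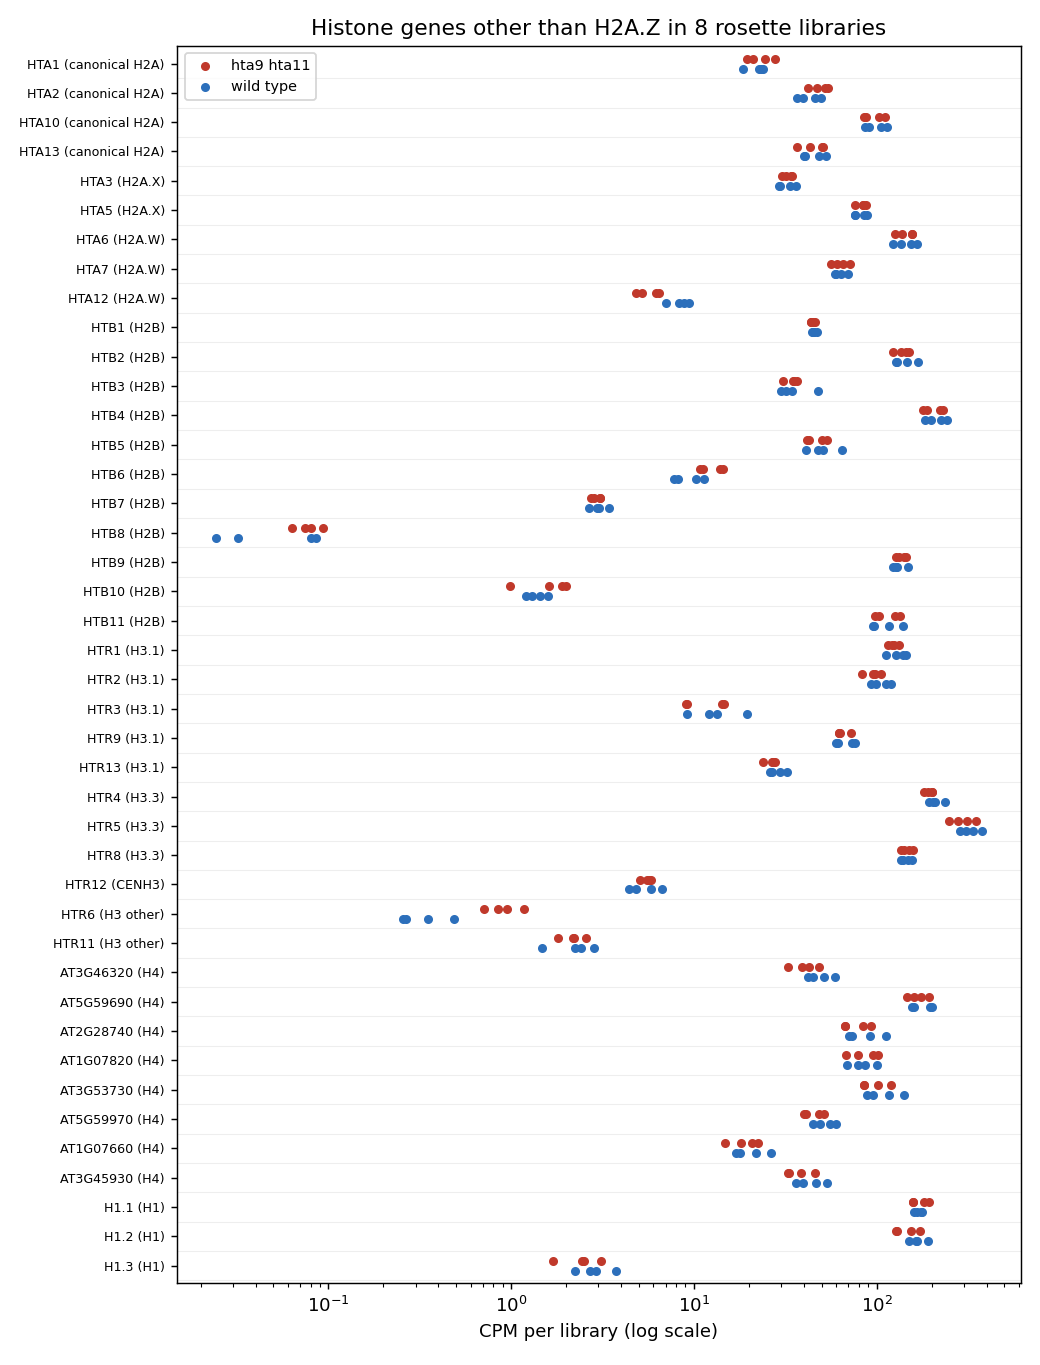
CPM of each of the 42 histone genes in each library on a log axis, with hta9 hta11 (red) above wild type (blue) in every row and the class of each gene in brackets. The points of both genotypes lie on each other in nearly every row; HTR6 sits to the right in hta9 hta11 and HTA12 to the left.

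**Figure D2:**
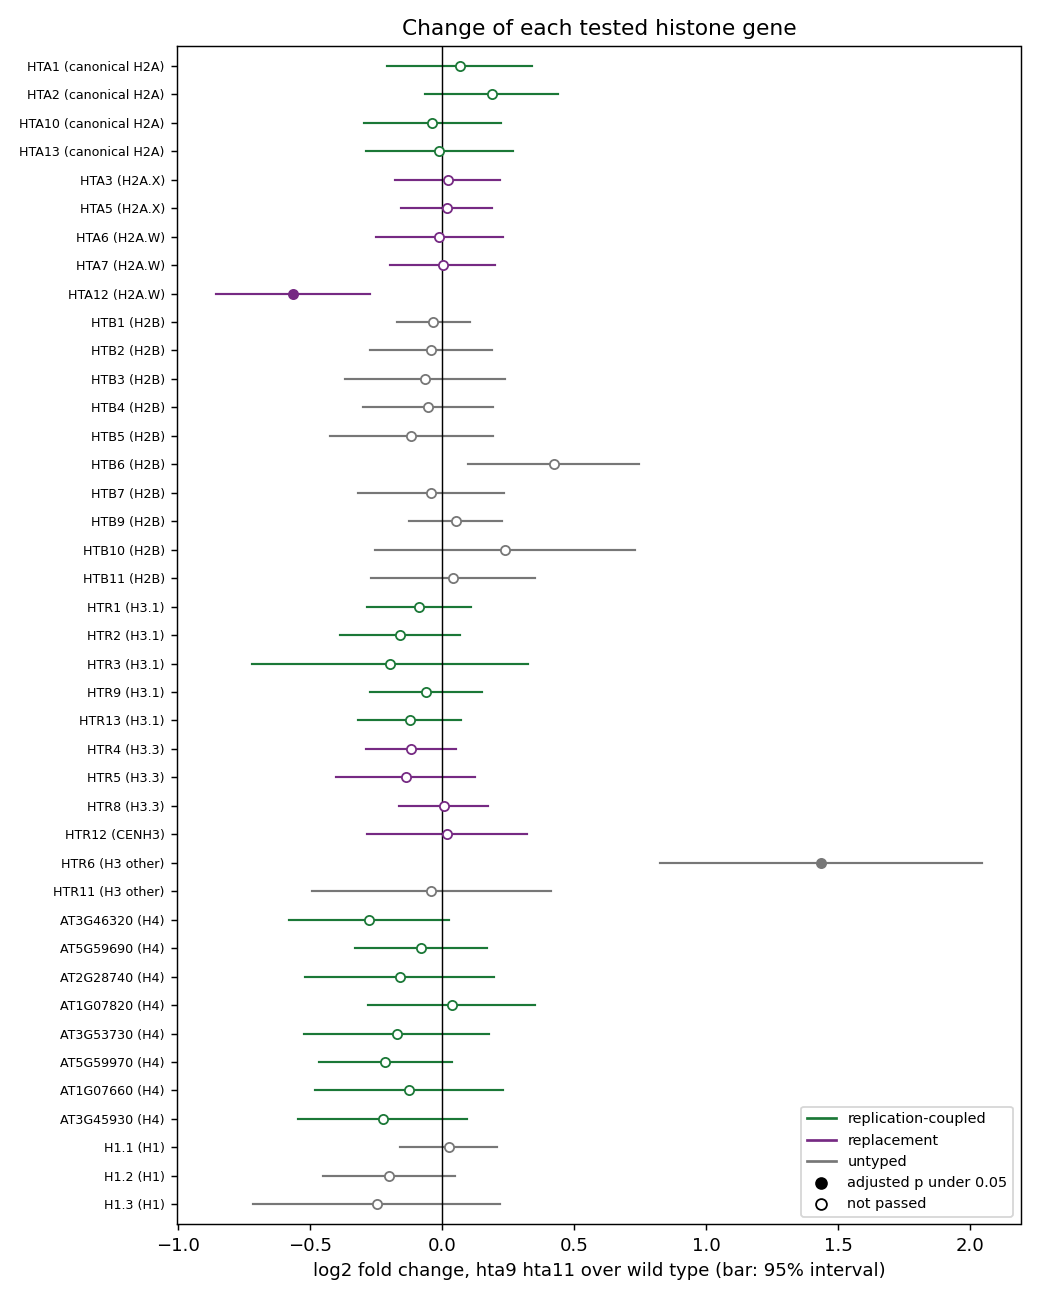
Log2 fold change of hta9 hta11 over wild type for the 41 tested genes, with 95% intervals as bars, coloured by type; filled points passed an adjusted p of 0.05. Only HTA12 and HTR6 are filled, and 39 open points lie between -0.28 and 0.42.

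Among the H2A genes, 1 of 9 tested fell, 0 rose and the median log2 fold change was 0.00349. HTA12 (AT5G02560, chromosome 5, 575225 to 577216) had 6.48, 4.80, 5.21 and 6.21 CPM in hta9 hta11, from 168 to 307 counts, against 8.34, 7.02, 8.89 and 9.42 CPM in wild type, from 290 to 330 counts. All 4 mutant libraries were below all 4 wild-type libraries. The mean was 5.67 ± 0.802 CPM in hta9 hta11 and 8.42 ± 1.03 CPM in wild type (SD, n = 4 each), and the log2 fold change was -0.56 with an SE of 0.13 (adjusted p = 0.0431). The call ended without hta9 hta11 library 2, 3 or 4 or wild-type library 1, 3 or 4 (highest adjusted p 0.124), and with upper-quartile scaling (0.0572), with a filter that kept genes reaching 1 CPM in 4 libraries (0.0507) and without hta9 hta11 libraries 1 and 3 (0.0854). HTB10 lies within the span of HTA12 on the opposite strand, and 29.8% of the 75-base stretches of HTA12 also occur, in either orientation, in another gene; the strand setting of the counting is not given in the sources used here, so counts of HTA12 and HTB10 are uncertain.

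HTA12 is the least expressed H2A.W gene. The most abundant, HTA6 (AT5G59870), had 156.0, 126.4, 137.8 and 156.2 CPM in hta9 hta11, against 165.7, 123.3, 154.9 and 136.4 CPM in wild type. Its groups overlapped throughout, with a log2 fold change of -0.01 (95% interval -0.25 to 0.23). HTA7 (AT5G27670), the third H2A.W gene, averaged 63.5 ± 6.33 CPM in hta9 hta11 and 63.4 ± 4.90 CPM in wild type (SD, n = 4 each). The sum of the 3 H2A.W genes, per kilobase of transcript, was 255.7 ± 24.8 CPM in hta9 hta11, and its libraries (229.2 to 279.5) lay within those of wild type (225.8 to 292.0).

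The canonical H2A genes, which supply most S-phase H2A, are HTA1 (AT5G54640), HTA2 (AT4G27230), HTA10 (AT1G51060) and HTA13 (AT3G20670). None of the 4 passed. HTA10, the highest of them, had 111.3, 85.4, 87.3 and 103.2 CPM in hta9 hta11, against 114.5, 85.98, 106.0 and 90.5 CPM in wild type. HTA2 had 53.97, 47.5, 42.2 and 52.4 CPM in hta9 hta11, against 49.8, 39.4, 46.1 and 36.9 CPM in wild type; the groups overlapped, and its log2 fold change of 0.19 (SE 0.11) did not pass (adjusted p = 0.43). The H2A.X genes HTA3 (AT1G54690) and HTA5 (AT1G08880), whose proteins differ at 2 residues, had log2 fold changes of 0.0215 and 0.0179 and averaged 32.8 ± 1.94 and 82.95 ± 4.64 CPM in hta9 hta11 and 32.3 ± 3.44 and 81.9 ± 6.40 CPM in wild type (SD, n = 4 each).

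**Figure D3:**
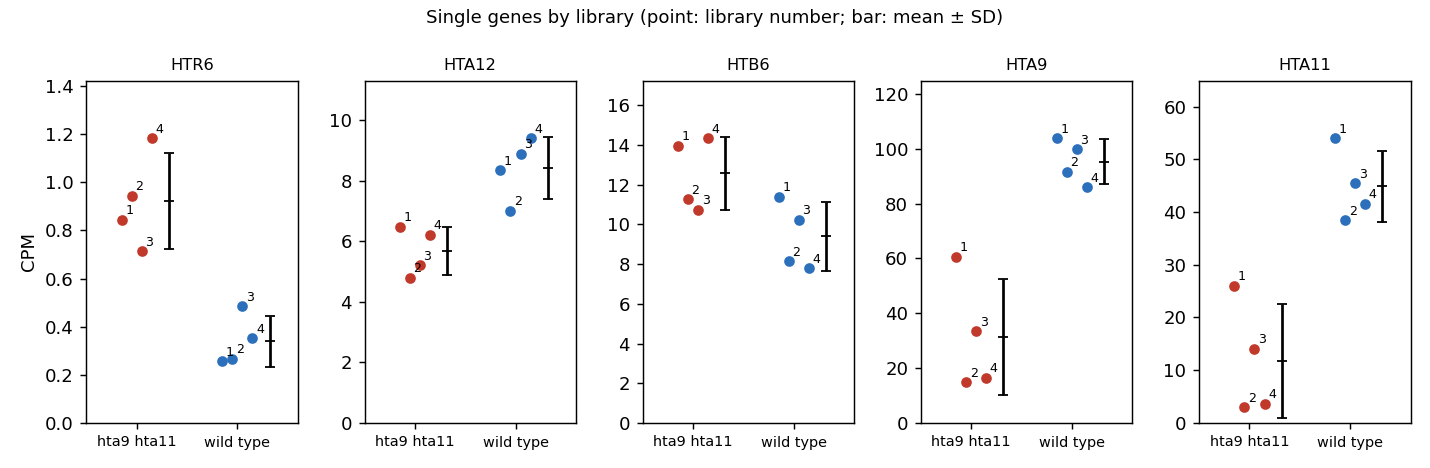
CPM in each numbered library of hta9 hta11 (left in each panel) and wild type (right) for HTR6, HTA12, HTB6, HTA9 and HTA11, with mean ± SD over 4 libraries. HTR6 lies at 0.713 to 1.18 CPM in hta9 hta11 and 0.255 to 0.485 CPM in wild type, and the panels of HTA9 and HTA11 show the higher points of mutant libraries 1 and 3.

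Of the 11 H2B genes, 10 were tested and none passed, with a median log2 fold change of -0.04. In DESeq2 and limma-voom, which called 6.86% and 3.59% of all genes, the count was also 0. In edgeR 1 gene had an unadjusted p under 0.05, against 18% of all genes. That gene was HTB6 (AT3G53650), which had 13.97, 11.3, 10.8 and 14.4 CPM in hta9 hta11, against 11.4, 8.15, 10.2 and 7.78 CPM in wild type. The lowest mutant library lay below the highest wild-type library. Its log2 fold change was 0.42 (SE 0.15, unadjusted p = 0.0154, adjusted p = 0.154), the nearest to the threshold of the genes that did not pass. The gene with the most CPM in the class, HTB4 (AT5G59910), had 230.4, 178.7, 189.5 and 222.4 CPM in hta9 hta11, against 242.0, 184.2, 226.3 and 199.6 CPM in wild type. HTB1 (AT1G07790) varied least: it had 43.7 to 46.2 CPM in hta9 hta11 and 44.5 to 47.3 CPM in wild type, with a 95% interval for the log2 fold change of -0.17 to 0.11. HTB2 (AT5G22880), HTB3 (AT2G28720), HTB5 (AT2G37470), HTB7 (AT3G09480), HTB9 (AT3G45980) and HTB11 (AT3G46030) had log2 fold changes between -0.12 and 0.05. HTB10 (AT5G02570) averaged 1.62 ± 0.451 CPM in hta9 hta11 and 1.39 ± 0.164 CPM in wild type (SD, n = 4 each), and all of its 75-base stretches also lie in HTA12. HTB8 (AT1G08170), a diverged H2B known from dry seeds, had 3, 3, 3 and 3 counts in hta9 hta11, against 3, 1, 3 and 1 counts in wild type, and was not tested.

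Of the 11 H3 genes, 1 rose, 0 fell and the median log2 fold change was -0.09. HTR6 (AT1G13370, chromosome 1, 4587780 to 4588661) had 0.844, 0.945, 0.713 and 1.18 CPM in hta9 hta11, against 0.255, 0.266, 0.485 and 0.352 CPM in wild type. Every mutant library was above every wild-type library. These values rest on 23 to 44 counts per library in hta9 hta11 and 9 to 18 in wild type. The fitted fold was 2.71 and the log2 fold change 1.44 (SE 0.27, 95% interval 0.83 to 2.05, adjusted p = 0.0209). The call ended without hta9 hta11 library 2 or 4 or wild-type library 1 or 2 (highest adjusted p 0.0779), and under the filter of 1 CPM in 4 libraries HTR6 was not tested. Per kilobase of transcript HTR6 had 1.32 CPM in hta9 hta11 and 0.488 CPM in wild type, the lowest level of any tested histone gene in both genotypes.

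The genes that supply nearly all H3 transcripts did not pass. All 5 H3.1 genes had a log2 fold change below 0, with a median of -0.12. HTR1 (AT5G65360), the highest, had 133.4, 115.9, 124.7 and 121.3 CPM in hta9 hta11, against 144.8, 113.1, 139.5 and 128.1 CPM in wild type, a log2 fold change of -0.09 (95% interval -0.28 to 0.11). HTR2 (AT1G09200) had a log2 fold change of -0.16 (adjusted p = 0.463), HTR9 (AT5G10400) of -0.06, HTR13 (AT5G10390) of -0.12 and HTR3 (AT3G27360), the lowest in level of the 5, of -0.20. Among the H3.3 genes, HTR5 (AT4G40040) had 352.2, 279.0, 250.4 and 311.3 CPM in hta9 hta11, against 378.5, 308.8, 337.0 and 287.3 CPM in wild type; its groups overlapped and its log2 fold change was -0.14. HTR4 (AT4G40030) and HTR8 (AT5G10980) had log2 fold changes of -0.12 and 0.00696. HTR12 (AT1G01370), which encodes CENH3, averaged 5.51 ± 0.331 CPM in hta9 hta11 and 5.44 ± 1.02 CPM in wild type (SD, n = 4 each), and HTR11 (AT5G65350) averaged 2.19 ± 0.321 CPM and 2.25 ± 0.577 CPM. Of 3 further H3 genes, HTR10 (AT1G19890), known from pollen, had no count in any library, and HTR14 (AT1G75600) and HTR15 (AT5G12910) were at no more than 0.135 and 0.0422 CPM in hta9 hta11 and 0.032 CPM each in wild type.

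None of the 8 H4 genes passed, and none had an unadjusted p under 0.05; the count was 0 in DESeq2 and limma-voom as well. Of the 8, 7 had a log2 fold change below 0, and the median was -0.17. AT3G46320 had the lowest log2 fold change among the genes that did not pass: it had 48.6, 32.8, 39.2 and 42.7 CPM in hta9 hta11, against 59.1, 42.1, 51.8 and 44.9 CPM in wild type, a value of -0.28 (SE 0.14, 95% interval -0.58 to 0.03, adjusted p = 0.324). AT5G59690, the most abundant H4 gene, had 193.3, 160.6, 146.2 and 175.1 CPM in hta9 hta11, against 201.6, 161.3, 195.2 and 155.7 CPM in wild type, and a log2 fold change of -0.08. AT5G59970 and AT3G45930 had log2 fold changes of -0.21 and -0.22, AT3G53730 and AT2G28740 of -0.17 and -0.16, AT1G07660 of -0.12 and AT1G07820 of 0.04. Up to 20.4% of the 75-base stretches of an H4 gene (AT3G46320) occur in another gene, so reads of the H4 copies may not be fully separated.

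None of the 3 H1 genes passed, with 0 calls also in DESeq2 and limma-voom and 0 unadjusted p-values under 0.05. H1.2 (AT2G30620) had 173.6, 129.0, 128.4 and 154.6 CPM in hta9 hta11, against 190.7, 165.4, 166.8 and 150.3 CPM in wild type. The groups overlapped, since mutant libraries 1 and 4 lay above wild-type library 4, and the log2 fold change was -0.20 with an SE of 0.11 (adjusted p = 0.394). H1.1 (AT1G06760) had 192.9, 158.4, 158.6 and 181.0 CPM in hta9 hta11, against 176.6, 160.0, 175.5 and 166.8 CPM in wild type, and a log2 fold change of 0.03. H1.3 (AT2G18050), a short H1 known to be induced by drought, averaged 2.44 ± 0.587 CPM in hta9 hta11 and 2.90 ± 0.631 CPM in wild type (SD, n = 4 each).

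By type, 0 of 17 replication-coupled genes passed in edgeR, DESeq2 or limma-voom (0 at an unadjusted p under 0.05 in edgeR), with 14 log2 fold changes below 0 and a median of -0.12. Of 9 replacement genes, 1 (HTA12) fell, with 4 below 0 and a median of 0.00349. Of 15 tested genes without a type, 1 (HTR6) rose, with 9 below 0 and a median of -0.04. The summed level per kilobase of the replication-coupled genes was 1611, 1282, 1269 and 1467 CPM in hta9 hta11, against 1758, 1314, 1599 and 1343 CPM in wild type. Their means of 1407 ± 163.1 CPM in hta9 hta11 and 1503 ± 212 CPM in wild type (SD, n = 4 each) differed by less than the spread within either genotype. The replacement genes summed to 979.7, 831.0, 862.1 and 917.5 CPM per kilobase in hta9 hta11, against 1039, 852.8, 961.5 and 867.3 CPM per kilobase in wild type. The replacement sum was 0.64 ± 0.0308 of the replication-coupled sum in hta9 hta11 and 0.622 ± 0.0299 in wild type, and H3.3 over H3.1 was 1.21 ± 0.0253 in hta9 hta11 and 1.2 ± 0.053 in wild type (SD, n = 4 each); both ratios overlapped between the genotypes. The H2A to H4 ratio was 0.918 ± 0.05 in hta9 hta11 (0.853 to 0.974) and 0.833 ± 0.042 in wild type (0.777 to 0.874; SD, n = 4 each). It overlapped between the genotypes and was given no test.

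Every class sum overlapped between the genotypes. Per kilobase, H2A summed to 643.5 ± 61.1 CPM in hta9 hta11 and 639.6 ± 72.2 CPM in wild type, and H2B to 820.0 ± 76.95 CPM in hta9 hta11 and 822.6 ± 103.6 CPM in wild type. H3 summed to 961.1 ± 69.4 CPM in hta9 hta11 and 1025 ± 102.3 CPM in wild type, H4 to 705.0 ± 102.5 CPM and 772.7 ± 126.0 CPM, and H1 to 239.4 ± 28.4 CPM and 250.4 ± 15.5 CPM (SD, n = 4 each). H2A.Z differed in this respect: its sum was 118.1, 41.7, 68.3 and 46.1 CPM per kilobase in hta9 hta11, against 195.0, 161.5, 181.3 and 158.5 in wild type. As a share of all H2A family transcripts, H2A.Z made up 14.3%, 6.61%, 10.3% and 6.32% in hta9 hta11, against 21.3%, 22.0%, 21.1% and 21.3% in wild type. The sum of the other H2A genes overlapped between the genotypes, with an SD of 61.1 CPM per kilobase in hta9 hta11 and 72.2 in wild type. Whether those genes rose to match the lower H2A.Z share was not tested.

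**Figure D4:**
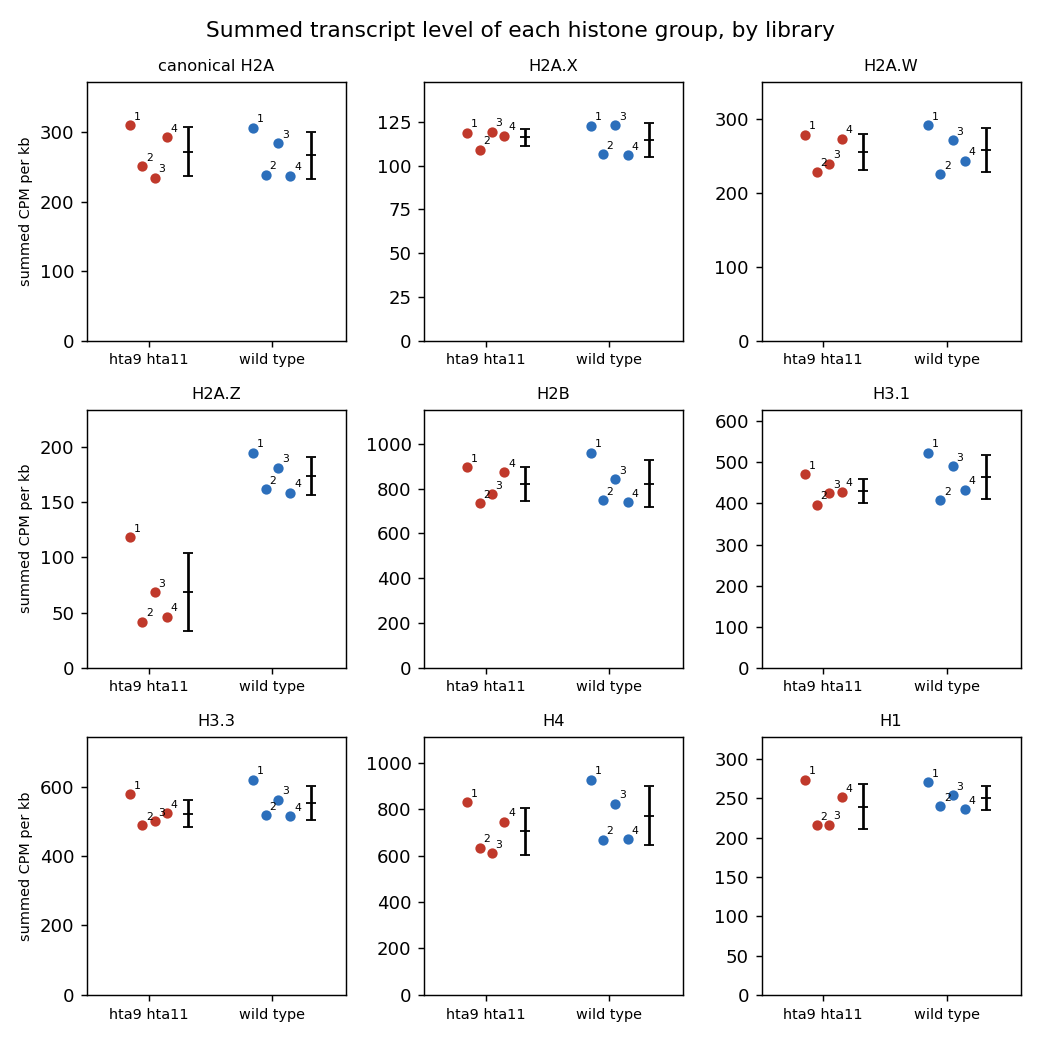
Summed CPM per kilobase of each histone group in each numbered library, with hta9 hta11 left of wild type, every axis starting at 0 and bars giving mean ± SD over 4 libraries. H2A.Z alone is separated by genotype in these panels; the canonical H2A libraries lie between 234.4 and 309.6 in hta9 hta11 and between 236.9 and 306.1 in wild type.

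A few genes supplied most transcripts of each class, and the order was the same in both genotypes for the leading genes. Per kilobase, AT5G59690 gave 32.2 ± 1.25% of H4 in hta9 hta11 and 31.1 ± 1.41% in wild type, HTR1 gave 39.8 ± 0.753% and 39.2 ± 1.19% of H3.1, and HTA6 gave 72.2 ± 1.37% and 71.8 ± 1.34% of H2A.W (SD, n = 4 each). HTA10 led the canonical H2A genes with 42.5 ± 1.58% in hta9 hta11 and 44.4 ± 1.09% in wild type, and HTR5 led H3.3 with 37.7 ± 3.18% and 39.1 ± 1.5%. In H2B the transcripts were spread over HTB9, HTB2, HTB4 and HTB11, each with 18.8% to 23.0% in hta9 hta11 and 18.2% to 22.2% in wild type. Of 39 shares, those of 4 genes did not overlap between the genotypes. HTA2 made up 22.6 ± 0.788% of canonical H2A in hta9 hta11 and 20.2 ± 0.499% in wild type. HTB6 made up 1.6 ± 0.113% of H2B in hta9 hta11 and 1.19 ± 0.0816% in wild type, and HTA12 made up 1.47 ± 0.067% of H2A.W in hta9 hta11 and 2.17 ± 0.281% in wild type. H1.2 made up 36.6 ± 1.11% of H1 in hta9 hta11 and 40.3 ± 1.86% in wild type (SD, n = 4 each). In a 2-sided exact permutation test over libraries each of these 4 shares had p = 0.0286, the smallest that 4 against 4 libraries allow, and an adjusted p of 0.248 over the 39 shares, so none passed. HTA2, HTB6 and H1.2 did not pass in the test of their levels either.

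Across the classes, the level per kilobase was highest for AT5G59690, at 226.6 ± 27.03 CPM in hta9 hta11 and 239.5 ± 31.3 CPM in wild type (SD, n = 4 each). HTR5 came next in both genotypes with 197.5 ± 28.97 CPM and 217.2 ± 26.1 CPM, which overlaps AT5G59690 within the SD, and HTB9, HTA6, HTR8 and HTR1 followed at 171.3 to 188.1 CPM in hta9 hta11 and 177.9 to 186.0 CPM in wild type, without separation beyond their spread. The low end held HTB8, HTR6, H1.3, HTB10 and HTR12, none above 3.11 CPM per kilobase in either genotype. CENH3 stood at 3.1 CPM per kilobase in hta9 hta11 and 3.06 CPM per kilobase in wild type.

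No gene that acts with the histones passed, in any of the lists looked at. Of 20 histone chaperone genes, 21 DNA replication genes, 14 regulators of the G1 to S transition and 16 genes of G2 and mitosis, 0 passed in edgeR, and 0 in DESeq2 and limma-voom. At an unadjusted p under 0.05 in edgeR the counts were 1, 0, 1 and 1, beside 18% of all genes tested. The groups of libraries did not overlap in 1, 1, 2 and 0 genes, CYCD3;2 among them, beside 11.3% of all genes tested. The median log2 fold changes of the 4 lists were -0.02, -0.01, 0.04 and 0.03. NAP1;2 (AT2G19480), a chaperone of H2A and H2B and the highest of its list, had 209.8 to 246.0 CPM in hta9 hta11 and 204.1 to 261.3 CPM in wild type, and NAP1;1 (AT4G26110) had 111.2 to 116.3 CPM and 97.4 to 114.0 CPM. RNR1 (AT2G21790) and TSO2 (AT3G27060), subunits of the enzyme that makes deoxynucleotides, averaged 79.5 ± 11.5 and 85.1 ± 12.2 CPM in hta9 hta11 and 81.6 ± 10.6 and 85.9 ± 7.87 CPM in wild type (SD, n = 4 each). The D-type cyclin CYCD3;2 (AT5G67260) had 47.4 to 58.4 CPM in hta9 hta11 and 40.99 to 47.2 CPM in wild type (log2 fold change 0.22, adjusted p = 0.197), and the cell cycle inhibitor SMR1 (AT3G10525) had 28.0 to 33.7 CPM and 28.2 to 35.3 CPM. KNOLLE (AT1G08560), a syntaxin of dividing cells, averaged 39.0 ± 3.90 CPM in hta9 hta11 and 39.6 ± 4.48 CPM in wild type, and the mitotic cyclin CYCB1;2 (AT5G06150) 20.4 ± 2.52 CPM and 21.1 ± 1.71 CPM (SD, n = 4 each).

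The histone genes varied together from library to library within each genotype. In 31 of 41 genes hta9 hta11 libraries 1 and 4 lay above libraries 2 and 3, and in 36 of 41 wild-type libraries 1 and 3 lay above libraries 2 and 4. Both orders held in 29 of 41 histone genes (70.7%), against 16.5% of all genes tested and 0 of 21 DNA replication genes. By type this was 15 of 17 replication-coupled genes, 5 of 9 replacement genes and 9 of 15 genes without a type. By class it was 7 of 9 H2A, 7 of 10 H2B, 5 of 11 H3, 8 of 8 H4 and 2 of 3 H1 genes. The order was picked out after the values had been seen. It went with transcript length. Histone transcripts are short, with a median of 836 exon bases, against 2321 for the replication genes and 1772 for all genes tested. Among genes of at least 5 CPM on average, both orders held in 55.8% of those under 1000 exon bases and in 1.05% of those over 3000. The short genes stood relative to the long genes at 0.28, -0.31, -0.25 and 0.08 in hta9 hta11 libraries 1 to 4, and at 0.47, -0.23, 0.18 and -0.21 in wild type, as median log2 deviation from the mean of all 8 libraries. The 4 libraries above 0 on that scale had replication-coupled sums of 1611 and 1467 CPM per kilobase in hta9 hta11 and 1758 and 1599 in wild type, and the 4 below 0 had 1282 and 1269 in hta9 hta11 and 1314 and 1343 in wild type.

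With that length difference as a covariate, added after the values had been seen, 1698 of 20214 genes passed (8.4%). Among the histone genes 4 passed: HTR6, HTA12 (log2 fold change -0.54, adjusted p = 0.022), HTB6 (0.50, 0.00497) and HTA2 (0.25, 0.0295). The median of the H4 genes was then -0.07 and that of the replication-coupled genes -0.05. With the covariate 20 of the 41 histone genes were below 0. Among them were 7 of 8 H4 and 5 of 5 H3.1 genes, the same counts as without it. Without wild-type library 1, the library with the highest histone level, the median over the 41 genes was 0.0181. In that fit 17 genes were below 0 in place of 27, among them 3 of 5 H3.1 and 6 of 8 H4 genes. Leaving out wild-type library 2, 3 or 4 gave 34, 23 and 35 genes below 0 (medians -0.103, -0.0213 and -0.0961). The same for hta9 hta11 libraries 1 to 4 gave 33, 22, 25 and 33 (medians -0.0951, -0.0233, -0.0271 and -0.0725).

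**Figure D5:**
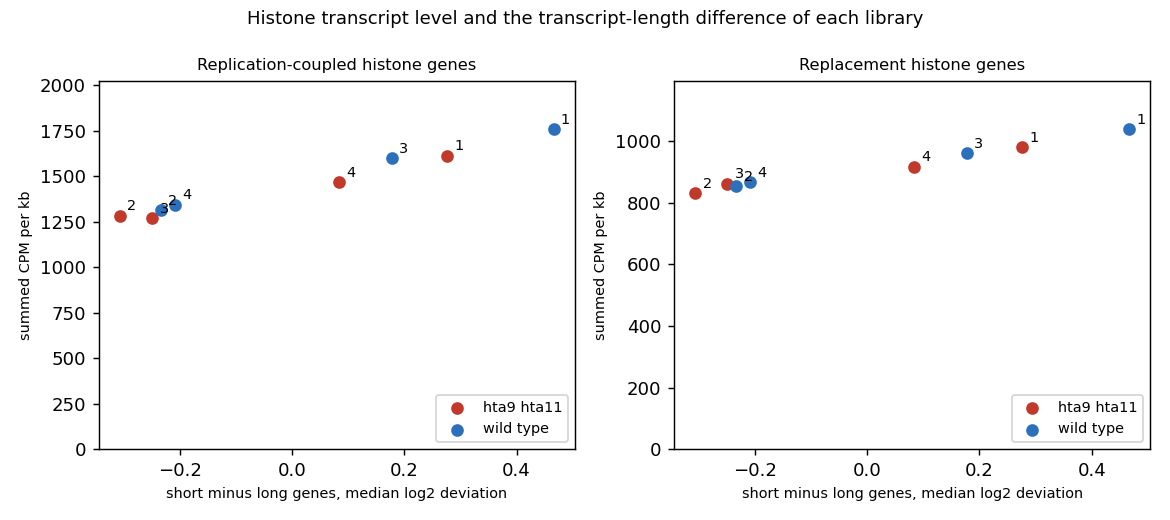
Summed CPM per kilobase of replication-coupled (left) and replacement (right) histone genes against the median log2 deviation of short minus long genes, for each numbered library of hta9 hta11 (red) and wild type (blue). In both panels the 4 libraries right of 0 lie above the 4 left of 0, and both genotypes are found on each side.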

How the data were processed

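Poly(A) RNA was sequenced from 4 hta9 hta11 and 4 wild-type pools of rosettes, grouped by genotype label. Every library entered the fit, although the protocol text mentions fewer replicates per genotype than are labelled. The authors deposited whole-number counts per gene; the build was TAIR10 and the tools included HISAT2 2.2.1, fastp 0.23.2 and SAMtools 1.17, per the submitters' processing notes. How reads were counted (program, strand, multiply mapped reads) is not given in the sources used here, so antisense partners and near-identical copies are uncertain. Positions, exon lengths and sequences came from RefSeq on TAIR10.1. RefSeq does not give 19 of the names used, which follow the usual histone nomenclature and stand beside their locus.

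In edgeR 4.0.16 under R 4.3.3, filterByExpr left 20214 genes, scaled by TMM. The test was the quasi-likelihood F test, 2-sided, with Benjamini-Hochberg adjustment across the whole table; genes passed at an adjusted p under 0.05. Adjusted p-values come from this test unless named otherwise, and fold changes are hta9 hta11 over wild type. CPM per kilobase divides by exon bases. Class sums and ratios were given no test. Shares of a class were compared by a 2-sided exact permutation test over libraries, Benjamini-Hochberg adjusted over 39 shares; that test was not in the initial design, which had none for shares. The quasi-likelihood test was tried on simulated data for this comparison (20077 genes). It recovered 90% of 100 genes given a log2 change of 1 and 100% of 100 given a change of 2, with 15 false calls. The changed genes were drawn from those above 1 CPM on average, so levels as low as that of HTR6 were not covered. The length difference between libraries was not simulated. Library pairs within a genotype differed by more than sampling noise.

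The members and lists were chosen with earlier results of these data known. All 42 members could be named. Genes that passed, the highest of each class and those just outside the threshold were given by library. From each other list the rule took up to 4 that passed, or up to 2 with the highest mean where none did; of the floral genes that rose no values are singled out. Alternatives were RLE and upper-quartile scaling, 2 other count filters, a replicate block, each library left out, hta9 hta11 libraries 1 and 3 left out, stricter types, levels without division by length, DESeq2 1.42.0, limma-voom (limma 3.58.1) and a length covariate.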

Additional observations from a re-analysis of the deposited data

Results flagged for a closer look

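HTR9, an H3.1 gene, had 72.0 CPM in hta9 hta11 library 1, while the other 3 mutant libraries lay between 62.3 and 63.0 CPM. This was the only group of 4 libraries, of 116 looked at, in which a single library stood so far from the rest (gap over range 0.925, above Dixon's critical value); chance flags about 1 in 20 groups. Library 1 was the deepest library and was above 0 on the scale of short against long genes; the part of either in this value was not tested.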

How the results depend on the processing

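Under RLE scaling, no count filter, the replicate block, DESeq2 and limma-voom, HTR6 and HTA12 remained the 2 histone genes called. The count was 1 with upper-quartile scaling, 0 with at least 1 CPM in at least 4 libraries, 1 without hta9 hta11 libraries 1 and 3, 4 with the length covariate (chosen after seeing the data) and 0 to 2 with each library left out. For H2A, in place of 1, these were 0, 0, 0, 2 and 0 to 1; for the replacement genes, in place of 1, they were 0, 0, 0, unchanged and 0 to 1, and 0 with H3.3 alone. For H3, in place of 1, the count was 0 with the stricter filter and 0 to 1 with a library left out; for genes without a type it was likewise 0 and 0 to 1, and 2 with the covariate. H2B and the replication-coupled genes each had 1 call with the covariate in place of 0. H2A.Z, in place of 1, had 0 with upper-quartile scaling and the stricter filter, 2 with the block, limma-voom, the covariate and without hta9 hta11 libraries 1 and 3, and 0 to 2 with a library left out. Over all genes the 757 calls became 1524 in DESeq2, 1698 with the covariate and 208 to 1246 with a library left out. The share of HTA12 in H2A.W differed by -0.70 percentage points per kilobase and -1.25 without division by length. HTR6, HTA12, HTB6, HTA2, H1.2, HTR2, AT3G46320, HTA9 and HTA11 kept their direction under every alternative that gave them a value, while the median over the histone genes was above 0 without wild-type library 1 (0.0181) and with the covariate (0.00177). In every other fit that median was below 0, and it was lowest without wild-type library 2 (-0.103). Same-numbered libraries correlated at 0.542, 0.497, -0.349 and -0.281 in their deviations. The value was positive where both libraries lay on the same side of 0 on the scale of short against long genes, and negative otherwise. These correlations therefore cannot show whether the numbers pair the samples. The replicate block gave 847 calls. The causes were not tested. HTR6 rests on 9 to 44 counts per library, which limits the precision of its fold.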
